A study of Mus musculus with 12 samples.

Results

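Upk3b, Wt1, Lrrn4 and Gpm6a are genes by which the mesothelium, the cell layer on the surface of the lung, is commonly recognised. They were taken by matching the Ensembl identifiers of a table of read counts to these 4 symbols, a matching that uses no measured value. The 4 symbols themselves were chosen with earlier results of these data known. All 4 were among the 31078 genes of the table, and all 4 were among the 9519 genes with enough counts to be tested. RNA sequencing had been done on left and right lungs of C57BL/6 mouse embryos at embryonic day 12.5. The knockout (KO) embryos carried a knockout of Intu, which encodes a protein of the CPLANE complex needed to build primary cilia, and the wild-type (WT) embryos were set against them. Embryos of both genotypes came from natural matings of parents carrying the knockout allele. There were 4 groups of 3 numbered libraries each: KO left, KO right, WT left and WT right lungs. The labels do not say whether a library is 1 embryo or a pool.

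The mesothelium is a single sheet of epithelial-like cells that covers the lung and the wall of the chest cavity. In the embryonic lung it is a source of growth signals to the tissue beneath, and some of its cells enter that tissue and contribute to the mesenchyme. Wt1 encodes a zinc finger transcription factor of embryonic mesothelia. The other members encode proteins of the cell membrane: Upk3b is a uroplakin, a family first known from the lining of the bladder, Lrrn4 carries leucine-rich repeats, and Gpm6a is a membrane glycoprotein that is also abundant in neurons. In RNA from whole lungs, fewer mesothelial cells and less RNA of a gene per cell cannot be told apart.

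In the GRCm38 coordinates of the table, Upk3b (ENSMUSG00000042985) spans 136038496 to 136046487 on the plus strand of chromosome 5. Wt1 (ENSMUSG00000016458) spans 105126529 to 105173616 on the plus strand of chromosome 2, and Lrrn4 (ENSMUSG00000043110) spans 132868305 to 132880891 on its minus strand. Gpm6a (ENSMUSG00000031517) spans 54954843 to 55060871 on the plus strand of chromosome 8. No other gene of the table overlaps the span of Upk3b, Wt1 or Lrrn4. The span of Gpm6a holds 5 other genes on its own strand, and none of these had more than 2 counts in a library. Upk3b passed a test between genotypes with the 12 libraries taken as separate, and Lrrn4 passed between sides of WT lungs with left and right paired. Neither call held in every fit given below. For these calls, the promoters of Upk3b and Lrrn4 are shown. Each runs 5′ to 3′ on the gene's own strand, from 250 bases before to 50 bases after the RefSeq start site (GRCm38.p6), at chr5:136038246-136038545 for Upk3b and chr2:132880813-132881112 for Lrrn4. Capitals mark matches to the motifs named next.
Upk3b: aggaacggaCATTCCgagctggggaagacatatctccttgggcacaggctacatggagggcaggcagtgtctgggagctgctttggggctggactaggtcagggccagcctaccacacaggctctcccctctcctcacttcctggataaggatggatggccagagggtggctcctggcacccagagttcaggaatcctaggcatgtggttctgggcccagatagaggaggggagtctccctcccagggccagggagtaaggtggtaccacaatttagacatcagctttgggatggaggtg
Lrrn4: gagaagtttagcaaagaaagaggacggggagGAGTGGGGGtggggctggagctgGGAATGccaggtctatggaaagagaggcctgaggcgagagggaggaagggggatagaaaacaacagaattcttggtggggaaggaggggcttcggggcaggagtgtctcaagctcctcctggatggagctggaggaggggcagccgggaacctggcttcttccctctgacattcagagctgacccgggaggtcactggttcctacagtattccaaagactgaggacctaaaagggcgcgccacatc
On both strands, 3 motifs were searched: CATTCC, the core letters of TEAD factors, GNGTGGGNG, a zinc finger motif of the WT1 type, and GACCACCCA, a GLI motif. The Upk3b window held CATTCC at -241 from the start site. The Lrrn4 window held GAGTGGGGG at -219 and the reverse complement of CATTCC at -196. No matches overlapped. CATTCC is present in 14.7% of the 32851 promoters of the RefSeq table, the WT1-type motif in 14.3% and the GLI motif in 0.253%, so the first 2 are common letters and no match here is more than a description. RefSeq gives Gpm6a 2 start sites: the window at chr8:54954478-54954777 held none of the 3 motifs, and the one at chr8:54779184-54779483, upstream of the counted span, held CATTCC on the opposite strand at -125.

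The libraries held 10290103 to 10753386 counts in the chromosomes used here. Intu averaged 28.2 ± 1.83 counts-per-million (CPM) in KO and 31.4 ± 2.11 CPM in WT libraries (SD, n = 6 each), a difference that did not pass the test (edgeR adjusted p = 0.162), so its transcript level does not check the labels. Gli1, a transcriptional target of Hedgehog signalling, had 170 ± 13.1 CPM in KO and 363 ± 19.6 CPM in WT libraries, with no overlap (log2 fold change -1.10, adjusted p = 1.54e-08). Summed liver markers reached 90.4 CPM in KO left library 1, against 5.18 to 10.3 CPM in the other 11 libraries. Summed lung epithelial markers lay at 476 to 577 CPM in KO and 495 to 549 CPM in WT libraries, and 3 kidney and gonad markers, tissues that also use Wt1, summed to 0.0959 to 0.954 CPM over all libraries.

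Between genotypes, Upk3b was lower in KO lungs, at 0.803 of the WT level, and Gpm6a averaged 0.789 of the WT level without passing the test. The average levels of Wt1 and Lrrn4 stood at 0.995 and 0.989 of the WT levels. Differences are given as log2 fold changes, KO minus WT, from an edgeR quasi-likelihood fit of all 12 libraries, with the standard error (SE). A gene is said to have passed where its p-value, adjusted over all 9519 genes by the Benjamini-Hochberg method, was under 0.05. The left and right library with the same number within a genotype deviated together, so the 6 libraries of a genotype may not be 6 independent samples, and the fit with left and right counts summed, 3 KO against 3 WT samples, is given beside the fit of 12. Upk3b passed in the fit of 12 and did not pass with left and right counts summed. The 95% intervals given here are not adjusted for the number of genes.

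**Figure D1:**
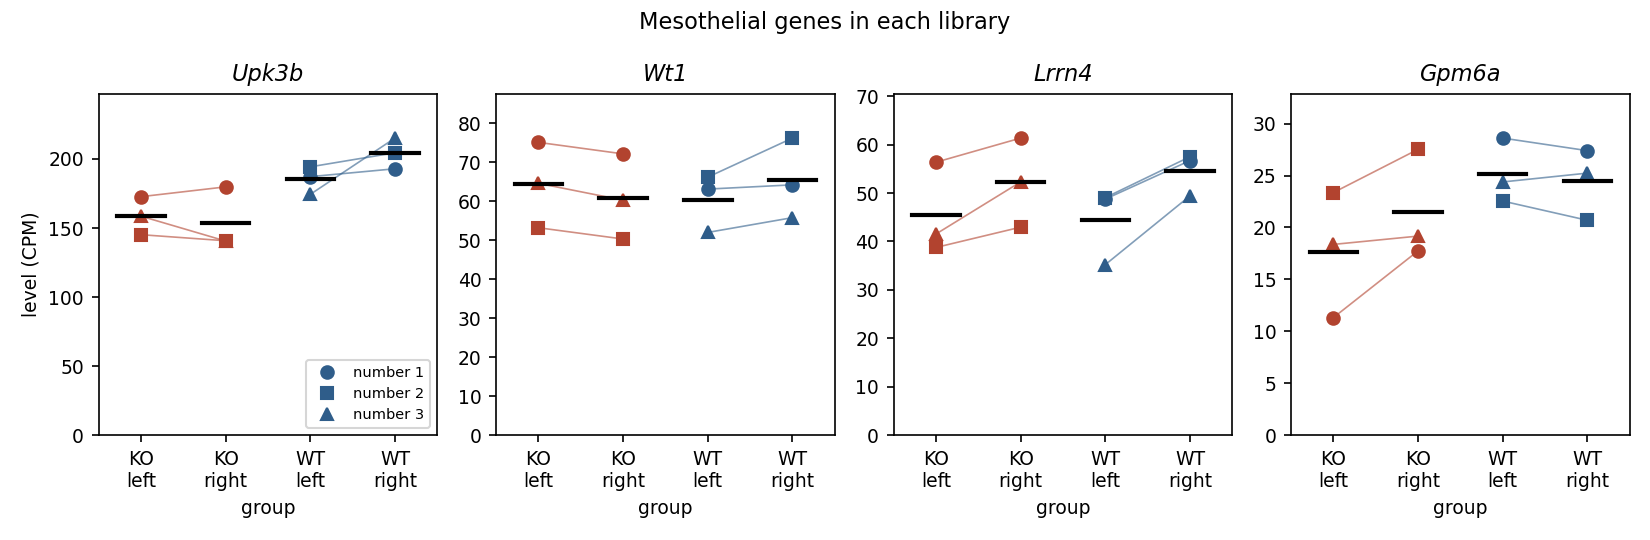
Level of each gene in CPM (vertical axis, from 0) in the 12 libraries of the 4 groups (horizontal axis); symbols give the library number, thin lines join left and right libraries of the same number, and black bars are group means. For Upk3b every KO library except KO right 1 (179.8 CPM) lies below all WT libraries, whereas for Wt1 and Lrrn4 the KO and WT symbols overlap throughout.

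Upk3b was the most abundant of the 4. It had 173, 145 and 159 CPM in KO left and 179.8, 141 and 141 CPM in KO right libraries 1 to 3. It had 187, 194 and 174 CPM in WT left and 193, 204.5 and 215 CPM in WT right libraries 1 to 3. KO and WT libraries of the same side did not overlap, as was so for 8.26% of all tested genes in left and 9.71% in right lungs (genes lower in KO), but the highest KO right library lay above the lowest WT left library. Group means were 159 ± 13.8 CPM in KO left, 154 ± 22.6 CPM in KO right, 185 ± 10.1 CPM in WT left and 204 ± 11.1 CPM in WT right lungs (SD, n = 3 each).

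Averaged over both sides, the log2 fold change of Upk3b was -0.32 (SE 0.07, 95% interval -0.46 to -0.18, edgeR adjusted p = 0.0113). It was 1 of the 345 genes, 3.62% of those tested, that were lower in KO lungs by this test. Right lungs alone gave -0.41 (SE 0.09, edgeR adjusted p = 0.0448), where 1.18% of tested genes were lower. Left lungs alone gave -0.22 (SE 0.09, edgeR adjusted p = 0.38), where 0.872% were lower, and the fold change of left lungs minus that of right lungs was 0.19 (SE 0.13, 95% interval -0.09 to 0.47, edgeR adjusted p = 1).

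The size of the Upk3b difference varied between -0.41 and -0.26 over the fits that left out a library or a pair, and its call was lost in some of them. With left and right counts summed, the log2 fold change was again -0.32 (SE 0.07, 95% interval -0.49 to -0.15), but the edgeR adjusted p was 0.0884, and 1.04% of the 10203 genes tested in that fit were lower in KO. In limma-voom, with a random effect for each left-right pair, the adjusted p was 0.0208. In the fit of 12 libraries the call remained without any single library and was lost without the left-right pair KO 3 (-0.28, adjusted p = 0.0658) or WT 2 (-0.30, adjusted p = 0.0694). Without KO left 1, the library with high liver markers, the value was -0.35 (adjusted p = 0.00861). The call in right lungs was lost without any 1 of 8 libraries: KO left 3, KO right 2, KO right 3 or any WT library except WT left 3, with adjusted p between 0.054 and 0.177. With right-lung libraries alone in the fit, the adjusted p was 0.0879. Summed levels of some other marker lists also separated the genotypes: summed mesenchymal markers lay at 6770 to 7720 CPM in KO and 6120 to 6680 CPM in WT libraries, with 2 of 7 tested genes higher (2.08% of all tested genes were) and none lower. Summed heart markers lay at 21.5 to 40.4 CPM in KO and 54.1 to 84.8 CPM in WT libraries. The largest part of this sum was Actc1, which was lower (17.7 CPM in KO, 57.7 CPM in WT), while Myl2 was higher (2.51 CPM in KO, 0.397 CPM in WT). Of the 4 tested heart genes, 2 had a positive and 2 a negative log2 fold change, with a median of 0.18, so the heart list did not move as a whole. The part of these lists in the Upk3b result was not tested.

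Lrrn4 had 56.4, 38.8 and 41.5 CPM in KO left and 61.3, 43.0 and 52.3 CPM in KO right libraries 1 to 3. In WT lungs it had 48.8, 49.1 and 35.2 CPM in left and 56.7, 57.5 and 49.4 CPM in right libraries 1 to 3. The genotypes overlapped on both sides, and the lowest library of all was a WT one. Its log2 fold change was -0.01 (SE 0.11, 95% interval -0.26 to 0.23, edgeR adjusted p = 0.97) over both sides, 0.04 in left and -0.06 in right lungs. That interval ends short of the -0.32 found for Upk3b but overlaps the interval of Upk3b. The difference between the genes was not tested.

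Gpm6a was the member with the widest spread and the fewest reads, 116 (95% exact Poisson interval 95.85 to 139.1) to 298 counts per library. It had 11.3, 23.4 and 18.4 CPM in KO left and 17.8, 27.5 and 19.2 CPM in KO right libraries 1 to 3. It had 28.6, 22.5 and 24.4 CPM in WT left and 27.4, 20.7 and 25.2 CPM in WT right libraries 1 to 3. The 4 KO libraries numbered 1 and 3 lay below all 6 WT libraries, and both KO libraries numbered 2 lay within the WT range.

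The log2 fold change of Gpm6a was -0.35 (SE 0.16, 95% interval -0.68 to -0.01) over both sides, with an unadjusted p of 0.0441 and an edgeR adjusted p of 0.237. It was -0.51 (SE 0.22, adjusted p = 0.414) in left and -0.19 (SE 0.22, adjusted p = 0.8) in right lungs. Without KO left 1, the library with high liver markers and the lowest Gpm6a level, the values were -0.22 (adjusted p = 0.372) over both sides and -0.26 (adjusted p = 0.71) in left lungs. Without the pair KO 1 the value over both sides was -0.16. Gpm6a passed in these alternatives: without the pair KO 2 the value was -0.58 (adjusted p = 0.0237), and with no filter on low counts the adjusted p was 0.00454 over both sides and 0.00582 in left lungs. Because Gpm6a is also a neuronal gene, the neuronal marker list was measured beside it. Its summed level was 29.6 to 36.5 CPM in KO left and 28.7 to 34.8 CPM in KO right, against 40.4 to 71.6 CPM in WT left and 70.5 to 73.8 CPM in WT right libraries, and 7 of its 10 tested genes were lower in KO lungs (3.62% of all tested genes were) with none higher. With sides summed 5 of the 10 were lower, and in limma-voom 6 were. The part of neurons in the Gpm6a result was not tested. Gpm6b, a close relative of Gpm6a, had a log2 fold change of 0.12 (edgeR adjusted p = 0.463).

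Wt1, the transcription factor of the set, had 75.1, 53.2 and 64.6 CPM in KO left and 72.2, 50.3 and 60.3 CPM in KO right libraries 1 to 3. It had 63.1, 66.2 and 52.0 CPM in WT left and 64.2, 76.2 and 55.8 CPM in WT right libraries 1 to 3. KO and WT libraries covered nearly the same range, 50.3 to 75.1 CPM in KO and 52.0 to 76.2 CPM in WT. The log2 fold change was -0.01 (SE 0.11, 95% interval -0.24 to 0.22, edgeR adjusted p = 0.984) over both sides, 0.09 (adjusted p = 0.911) in left and -0.10 (adjusted p = 0.846) in right lungs. Wt1os, a non-coding gene on the opposite strand whose own start, at 105126510, lies head to head with that of Wt1, averaged 5.39 ± 1.19 CPM in KO and 7.19 ± 1.06 CPM in WT libraries (SD, n = 6 each), with a log2 fold change of -0.43 (edgeR adjusted p = 0.0795). The counted spans of the pair do not overlap, and whether counting used strand is not given in the sources used here.

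**Figure D2:**
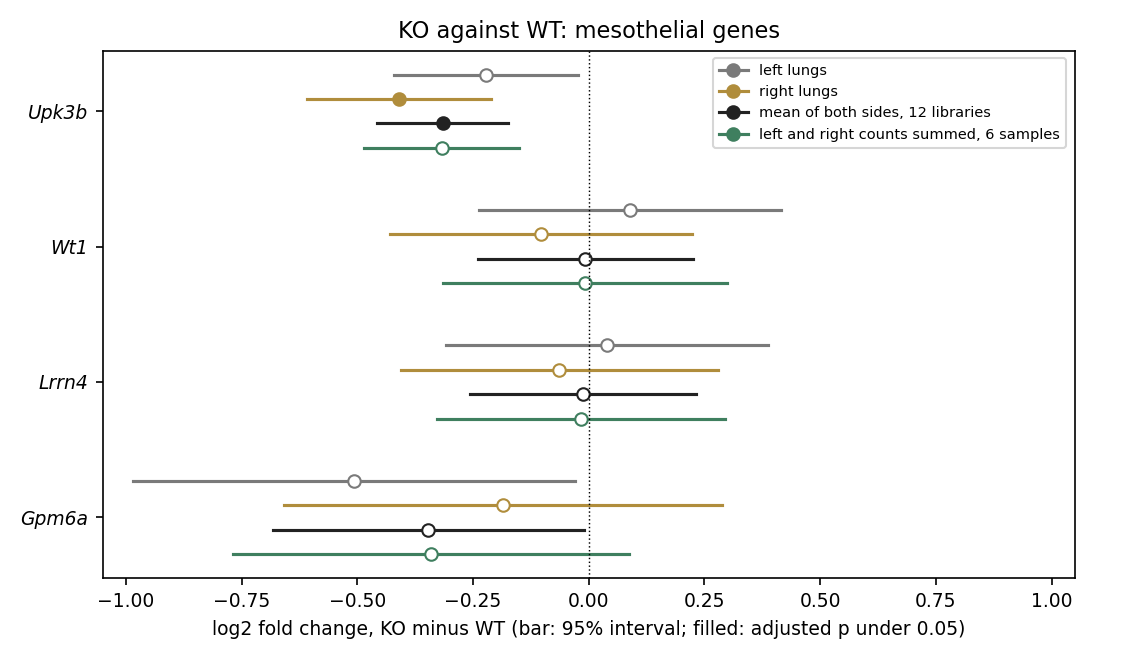
Log2 fold change, KO minus WT (horizontal axis), of each gene in left lungs, right lungs, the mean of both sides and with left and right counts summed; bars are 95% intervals, and filled circles mark adjusted p under 0.05. Upk3b lies below 0 with its whole interval in each of the 4 fits and is filled for right lungs and the mean, and Wt1 and Lrrn4 lie around 0.

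Per kilobase of exon, the scale on which genes can be compared, the order over the 12 libraries was Upk3b (39.8 to 61.0 CPM per kb), Lrrn4 (9.48 to 16.5), Wt1 (8.13 to 12.3) and Gpm6a (3.52 to 8.90). Upk3b was above the other 3 in 12 of 12 libraries with no overlap of ranges. Lrrn4 was above Wt1 within each of the 12 libraries, although their ranges over libraries overlapped, and Wt1 was above Gpm6a in 11 of 12. The balance of the genes within a sample can be read from ratios of their counts, left and right summed, with no test made. Upk3b had 2.39, 2.76 and 2.40 counts per Wt1 count in KO samples 1 to 3, against 2.98, 2.80 and 3.61 in WT samples 1 to 3. Per Lrrn4 count it had 3.0, 3.5 and 3.19 in KO, against 3.6, 3.74 and 4.61 in WT samples. Both ratios were lower in each KO than in each WT sample, with nearest values of 2.76 and 2.80 per Wt1 count and 3.5 and 3.6 per Lrrn4 count. Upk3b was itself lower in KO, so these ratios are not separate support for that difference. How many other ratios part in this way was not counted. The ratio of Lrrn4 to Wt1 counts was 0.799, 0.789 and 0.751 in KO and 0.828, 0.748 and 0.784 in WT samples, and these overlapped.

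Left and right lungs of the same genotype were then set against each other. Lrrn4 was lower in the left lung than in the right lung of the same number in 3 of 3 KO and 3 of 3 WT pairs, and Wt1 and Upk3b showed smaller differences. The share of all tested genes with the signs of Lrrn4 is not given here, so the signs alone carry no weight. Differences are log2 left minus right from an edgeR fit with the 6 left-right pairs as blocks. For Lrrn4 they were -0.20 (SE 0.07, adjusted p = 0.357) in KO and -0.31 (SE 0.07, 95% interval -0.45 to -0.16, adjusted p = 0.0458) in WT lungs, and 0.452% of genes in KO and 0.662% in WT passed in either direction. The KO difference minus the WT difference was 0.11 (SE 0.10, adjusted p = 0.998).

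The WT call of Lrrn4 rested on the pairing. Without blocks the same difference was -0.30 with an edgeR adjusted p of 1, and 0% of genes in KO (358 had an unadjusted p below 0.05, and 4 passed in DESeq2) and 0.0105% in WT passed. The fit in limma-voom with a random effect per pair gave -0.31 with an adjusted p of 0.675. Leaving out a pair in the blocked fit ended the call without KO 3 (adjusted p = 0.0632), WT 1 (0.143), WT 2 (0.182) or WT 3 (0.561), where the value was -0.22. It remained without KO 1 (adjusted p = 0.0402) or KO 2 (0.0292).

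Wt1 had left minus right values of 0.06, 0.08 and 0.10 in KO pairs 1 to 3 and -0.02, -0.20 and -0.10 in WT pairs 1 to 3. It was thus higher on the left in each KO pair and lower on the left in each WT pair. How many of all tested genes had these signs was not counted. The blocked fit gave 0.08 (SE 0.06, adjusted p = 0.733) in KO and -0.11 (SE 0.06, adjusted p = 0.838) in WT lungs. Upk3b gave 0.05 (SE 0.06, adjusted p = 0.833) in KO and -0.14 (SE 0.06, adjusted p = 0.565) in WT lungs. Gpm6a went the other way, lower on the left in 3 of 3 KO pairs and in 1 of 3 WT pairs, with -0.29 (SE 0.10, adjusted p = 0.355) in KO and 0.04 (SE 0.10, adjusted p = 0.986) in WT lungs. None of the 4 genes passed the test of the genotype by side difference, where 0.021% of genes passed with blocks and 0% without (there 124 genes had an unadjusted p below 0.05 in edgeR, and DESeq2 passed 0).

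**Figure D3:**
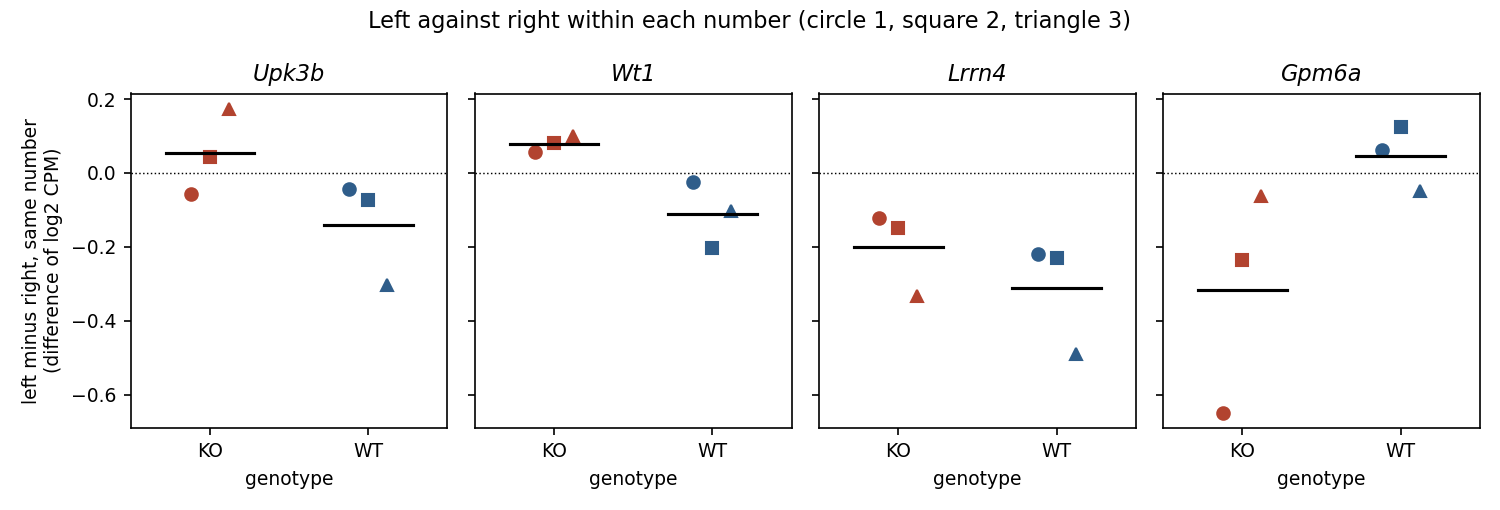
Left minus right difference of log2 CPM (vertical axis) within each library number of KO and WT lungs for each gene; circles, squares and triangles are numbers 1 to 3 and bars are means of 3. Lrrn4 lies below 0 in all 6 pairs, and Wt1 lies above 0 in the 3 KO pairs and below 0 in the 3 WT pairs.

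Within a group, the 4 genes varied with the library number. In KO lungs on either side, number 1 was the highest library for Wt1, Lrrn4 and Upk3b and the lowest for Gpm6a. Wt1 deviated from its group mean by 0.24 and 0.26 on the log2 scale in KO left and KO right 1, and Gpm6a by -0.57 and -0.25 in the same libraries. Number 2 was the lowest KO library for Wt1 and Lrrn4 on both sides and the highest for Gpm6a, with deviations of -0.26 and -0.26 for Wt1 and 0.46 and 0.38 for Gpm6a. In WT lungs, number 3 was the lowest library for Wt1 and Lrrn4 on both sides, and number 2 was the lowest for Gpm6a. KO right 1, where summed liver markers lay within the 5.18 to 7.9 CPM of the KO right libraries, showed the same pattern of the 4 genes as KO left 1.

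**Figure D4:**
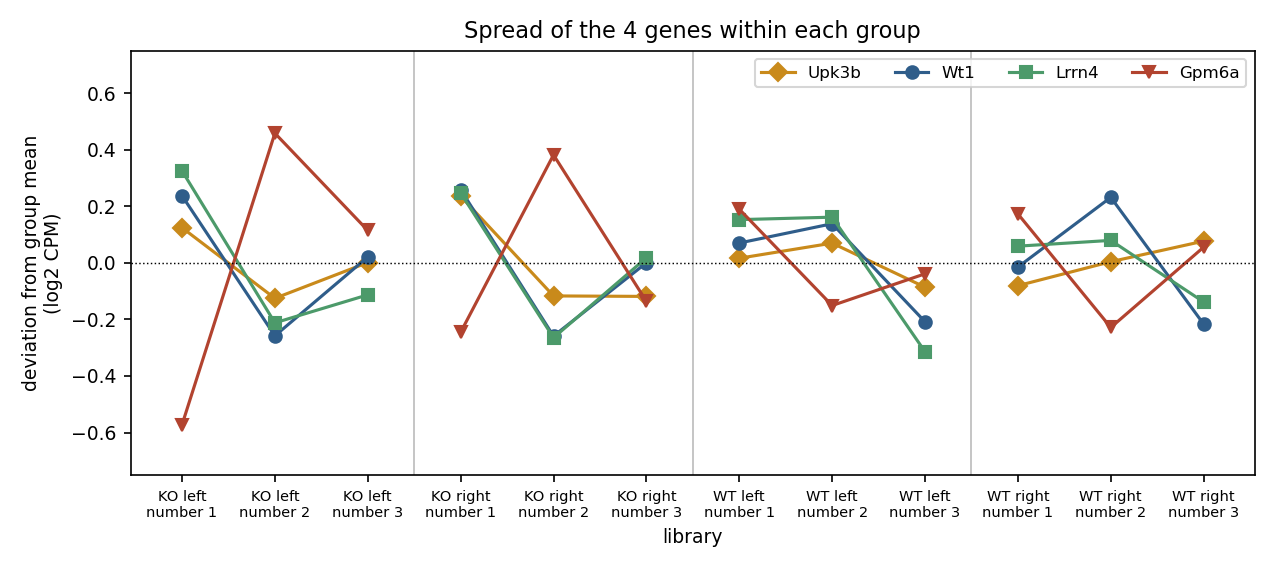
Deviation of log2 CPM from the mean of its own group (vertical axis) in each of the 12 libraries (horizontal axis) for the 4 genes; lines join the 3 libraries of a group only to guide the eye. Wt1 and Lrrn4 lie on the same side of 0 in most libraries, and in KO left lungs Gpm6a lies at -0.57 in library 1, where they are high, and at 0.46 in library 2, where they are low.

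The 4 genes were placed within a list of 28 mesothelial genes, 14 of which were in the table and all 14 tested; the others, among them Msln and the keratins, were not analysed here. Over both sides 1 of the 14 was higher in KO lungs (2.08% of all tested genes were), 2 were lower (3.62% of all tested genes were) and 11 did not pass, with a median log2 fold change of -0.01, against 0.00 over all tested genes. With left and right summed, none of the 14 passed the edgeR test, and 6 had an unadjusted p under 0.05, as did 1350 of all 10203 genes. In limma-voom, 2 of the 14 passed, both lower in KO, as did 2.48% of all tested genes. In left lungs none passed in edgeR or limma-voom (median 0.06, with 6 at an unadjusted p below 0.05 in edgeR, as were 1037 of all 9519 genes), and in right lungs only Upk3b did (median -0.09). The summed level of the list was 1510 to 1750 CPM in KO libraries, 1450 to 1570 CPM in WT left and 1700 to 1720 CPM in WT right libraries, so the KO libraries overlapped those of both WT groups. The largest parts of this sum were Podxl, Sulf1 and Cav1, which averaged 424, 300 and 277 CPM over all libraries, so it mostly follows a few abundant genes. Whether the reads of these genes came from mesothelial or from other cells of the lung was not tested.

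**Figure D5:**
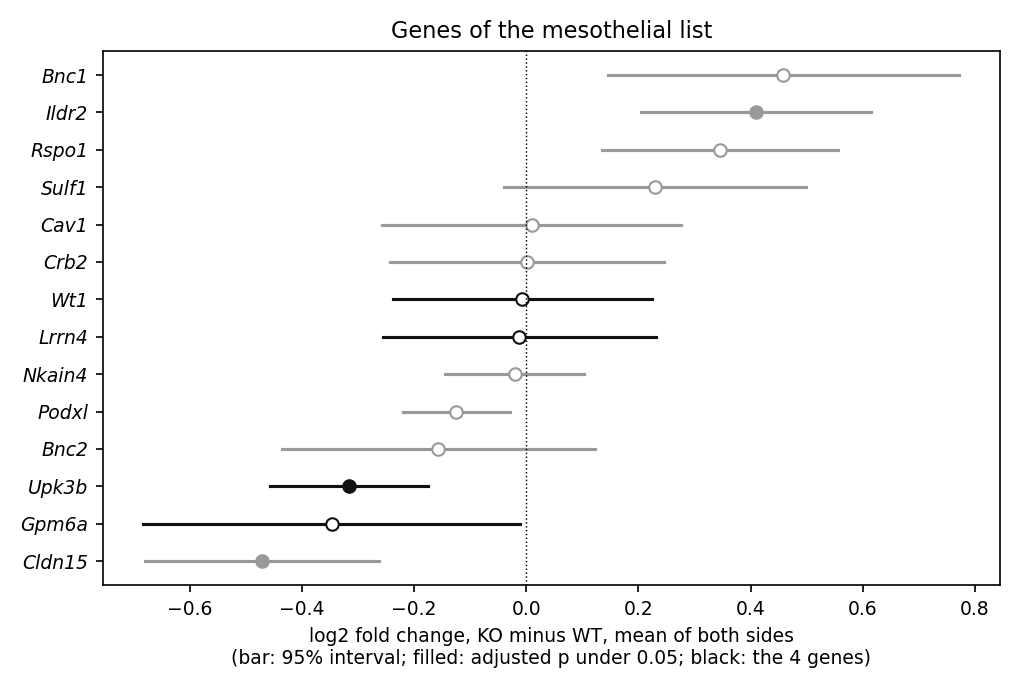
Log2 fold change, KO minus WT, mean of both sides (horizontal axis), of the 14 tested genes of the mesothelial list, ordered by value; bars are 95% intervals, filled circles mark adjusted p under 0.05 and black marks the 4 genes described here. The values run from -0.47 for Cldn15 to 0.46 for Bnc1, with 6 above 0 and 8 below.

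The list genes that passed over both sides, beside Upk3b, were Cldn15 and Ildr2. Cldn15, a claudin of tight junctions, had 8.13 ± 1.03 CPM in KO and 11.2 ± 0.863 CPM in WT libraries (SD, n = 6 each), and its KO libraries all lay below its WT libraries, as was so for 2.65% of tested genes. Its log2 fold change was -0.47 (SE 0.10, edgeR adjusted p = 0.011), with an adjusted p of 0.0884 for summed sides, 0.0676 without the pair WT 1 and 0.052 without WT 2. Ildr2, a membrane protein of the immunoglobulin superfamily, had 12.5 ± 1.86 CPM in KO and 9.34 ± 0.629 CPM in WT libraries, with a log2 fold change of 0.41 (SE 0.10, edgeR adjusted p = 0.022). That call was lost with summed sides (adjusted p = 0.113), in limma-voom (0.0842), without WT left 3 (0.0515) or WT right 2 (0.0611), and without the pair WT 1 (0.0705), WT 2 (0.103) or WT 3 (0.0676).

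The other abundant genes of the list did not pass in the fit of 12 libraries. Podxl, which encodes the surface sialomucin podocalyxin, had 405 ± 20.3 CPM in KO and 443 ± 33.6 CPM in WT libraries (log2 fold change -0.12, adjusted p = 0.128). Sulf1, an enzyme that trims sulfate from heparan sulfate, had 323 ± 80.8 CPM in KO and 276 ± 23.4 CPM in WT libraries (0.23, adjusted p = 0.336), and the value was 0.00 without the pair KO 1. Rspo1, a secreted activator of Wnt signalling, had 114 ± 19.6 CPM in KO and 90.1 ± 7.62 CPM in WT libraries (0.35, adjusted p = 0.0552). Without KO left 2, KO right 2 or that pair, the adjusted p of Rspo1 was 0.0254, 0.00937 and 0.0016 in turn, and DESeq2 gave 0.00949. Only 4 of the 24 fits that left out a library or a pair passed. Over these 24 fits the value of Rspo1 lay between 0.21 and 0.47, with an edgeR adjusted p of up to 0.453. The KO libraries numbered 2, at 100.2 and 86.1 CPM of Rspo1, were its lowest KO libraries, as they were for Wt1.

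Cav1, which encodes the coat protein of caveolae, had 276 ± 66.1 CPM in KO and 277 ± 55.1 CPM in WT libraries, a log2 fold change of 0.01 that changed sign with summed sides. Between sides it passed in both genotypes with pairs as blocks, with left minus right values of -0.35 (SE 0.07, adjusted p = 0.0304) in KO and -0.49 (SE 0.07, adjusted p = 0.000422) in WT lungs. It was lower on the left in 3 of 3 KO and 3 of 3 WT pairs, and the share of all tested genes with these signs is not given here. In the fit of 12 libraries without blocks the adjusted p of Cav1 was 1 in both genotypes, and in limma-voom it was 0.527 in KO and 0.308 in WT lungs. With no filter on low counts and no blocks it passed, at an adjusted p of 0.00769 in KO and 2.26e-09 in WT lungs, which Lrrn4 did not (0.954 and 0.429). The KO call of Cav1 was lost without the pair KO 1 (-0.18, adjusted p = 0.295), KO 3 (0.187) or WT 2 (0.0544), and the WT call remained without any 1 pair. With pairs as blocks, 1 of the 14 list genes passed between sides in KO (Cav1) and 2 in WT lungs (Cav1 and Lrrn4), each lower on the left. Of all tested genes, 0.189% in KO and 0.389% in WT were lower on the left in that fit. None of the 14 passed between sides in the main fit without blocks or in limma-voom.

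Among the other uroplakins only Upk1a was tested, at 1.35 ± 0.25 CPM in KO and 1.04 ± 0.322 CPM in WT libraries (log2 fold change 0.40, edgeR adjusted p = 0.363). Upk1b, Upk2 and Upk3a were not analysed here. Upk3bl, a neighbouring gene with a similar name, had at most 3 counts in a library, so reads assigned to it were few beside the 1460 to 2251 counts of Upk3b.

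The genes whose log2 CPM was most like each member over the 12 libraries were picked by Pearson's r among 7143 tested genes with a mean of at least 5 CPM. These values are a description without a test, since libraries of the same number are not independent and since group differences enter them. For Upk3b they were Astn1 (r = 0.954, Spearman's rho = 0.93), Rtl3 (0.947, 0.965) and Aif1l (0.946, 0.937). For Wt1 they were Nkx6-1 (0.954, 0.93), Trp53rkb (0.918, 0.895) and Ercc2 (0.917, 0.93), and for Lrrn4 they were Pbx3 (0.907, 0.923), Cpe (0.867, 0.881) and Mrgbp (0.853, 0.881). For Gpm6a they were Col4a4 (0.92, 0.902), Clec2d (0.912, 0.839) and Sertad4 (0.904, 0.86). None of these 12 is on the mesothelial list. Wt1 stood at rank 1419 for likeness to Upk3b and Lrrn4 at rank 42 for likeness to Wt1, of 7143.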

How the data were processed

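The table holds raw read counts per gene as the authors deposited them, with no normalisation. The submitters' processing notes name FastQC for the check of reads, HISAT2 and GRCm38 for alignment and featureCounts for counting. For the versions and the strand setting, the sources used here give nothing. As used here, it ends in an incomplete row on chromosome 8, and that 1 row was left out. The genes used lie on chromosomes 1 to 7, 10 and X and on part of 8, so the 10290103 to 10753386 counts per library are a part of its depth, and CPM are relative to that part. Other chromosomes were not analysed here. Symbols were found by Ensembl ID for 30915 of the 31078 genes (99.5%).

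Genes were filtered with filterByExpr (minimum count 10, minimum total 15) and scaled with TMM factors of 0.992 to 1.01. The 4 groups were compared in 1 edgeR 4.0.16 fit (glmQLFit, glmQLFTest, R 4.3.3) of the 12 libraries, which leaves 8 residual degrees of freedom, and the Benjamini-Hochberg adjustment was used with a threshold of 0.05. The procedure was tested on simulated counts. Alternatives were DESeq2 1.42.0, other size factors, no filter, only the compared groups, limma 3.58.1 voom, blocks, summed sides and leaving out each library or pair; leaving out pairs in the summed and blocked fits was added after seeing the data. The 4 genes and the lists were chosen with earlier results of these data known. The text names the 4 genes, Intu and Gli1, related genes, the called genes and the 4 most abundant genes of the mesothelial list, and the 3 genes most like each member; 1 related gene is not reported here. Actc1 and Myl2 were named after their values were seen.

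Libraries of a group differed by more than sampling noise, with a chi-square between 4.57 and 13.6 per degree of freedom. The labels do not say that libraries stem from separate embryos, and the p-values therefore reflect the spread among these libraries only, which may be technical. The left and right libraries of a genotype that share a number had deviations from their group means that correlated at 0.253 to 0.486 in all 6 cases, against -0.393 to -0.00284 for different numbers and -0.103 to -0.0423 across genotypes. Because deviations within a group of 3 sum to 0, positive values for the same number push those for different numbers below 0. The contrast between same and different numbers is therefore not independent support for pairing. On this hint from the data, and not from the labels, numbers were treated as pairing the sides within a genotype. The blocked tests use the same counts that gave the hint. Intervals on counts cover counting error only.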

Additional observations from a re-analysis of the deposited data

Results flagged for a closer look

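Wt1 was picked out because it was higher in the left than in the right lung in each of the 3 KO pairs and lower in the left lung in each of the 3 WT pairs. The share of all tested genes with these signs was not counted, so the signs alone carry no weight. With left-right pairs as blocks, the left minus right difference of KO lungs exceeded that of WT lungs by 0.19 on the log2 scale (SE 0.09, 95% interval 0.01 to 0.37, unadjusted p = 0.0402 in edgeR), and the p-value adjusted over all genes was 0.998, so the difference did not pass.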

How the results depend on the processing

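Over all comparisons, 116 of 137 alternative values for Upk3b, 119 for Wt1, 113 for Lrrn4 and 132 for Gpm6a kept their direction and their side of the threshold. These counts include comparisons that a gene did not pass to begin with. Over both sides, the Upk3b call was lost in 1 of 6 other settings and in 7 of 24 fits that left out a library or a pair. In right lungs it was lost in 1 of 6 and in 8 of 12. Size factors moved no call. For KO minus WT over both sides, Upk3b was -0.32 with sides summed, no longer passing, and Gpm6a was -0.35 with no filter, then passing, as did its left value of -0.51. Upk3b in right lungs was -0.41 and did not pass with only the compared groups. Cav1 changed sign to -0.0099 with number blocks, -0.0165 in limma-voom and -0.0022 summed. Pairing was tested with replicate blocks: Lrrn4 in WT lungs between sides was -0.31 and passed only there, and the block changed no other call of a member. The causes were not tested. Genes passing over both sides numbered 543, against 1084 with no filter, 344 in limma-voom and 141 summed. In left lungs they were 112, against 193 in DESeq2, 510 with no filter, 49 with only the compared groups and 177 with number blocks, and in right lungs 144, against 224 in DESeq2 and 595 with no filter. Between sides they were 0 in KO, against 4 in DESeq2, 31 with no filter, 43 with pair blocks and 2 in limma-voom, and 1 in WT, against 11, 46, 63 and 13 in the same fits and 8 with only the compared groups. For the genotype by side difference they were 0, against 6 with no filter and 2 with pair blocks.

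Leaving out a library or pair gave these ranges. Over both sides Upk3b lay between -0.41 and -0.26, Wt1 -0.14 and 0.11, Lrrn4 -0.17 and 0.10, Gpm6a -0.58 and -0.16, Sulf1 -0.0098 and 0.36, Cav1 -0.19 and 0.14, and genes passing 29 and 636. In left lungs Wt1 lay between -0.032 and 0.21, Lrrn4 -0.14 and 0.14, and genes passing 45 and 137. In right lungs Upk3b lay between -0.54 and -0.35, Wt1 -0.24 and 0.024, Lrrn4 -0.19 and 0.059, and genes passing 68 and 175. Between sides in KO, Upk3b lay between -0.0139 and 0.17, Wt1 -0.045 and 0.22, and genes passing 0 and 41. Between sides in WT, Wt1 lay between -0.22 and 0.0105, Lrrn4 -0.38 and -0.16, Gpm6a -0.064 and 0.14, and genes passing 1 and 82. For the genotype by side difference Lrrn4 lay between -0.075 and 0.23, and genes passing 0 and 4. The lowest count of a member was 116, for Gpm6a.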

Other observations

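Crb2, a polarity protein gene of the mesothelial list, showed the same sides as Wt1. It was higher on the left in 3 of 3 KO pairs and lower on the left in 3 of 3 WT pairs, with a genotype by side difference of 0.33 on the log2 scale (edgeR with pairs as blocks, unadjusted p = 0.00468, adjusted p = 0.998). Crb2 was named after its values were seen, and the share of all tested genes with these signs was not counted. Of the 14 tested genes of the list, 12 had a positive genotype by side difference and 2 a negative one. The median with pairs as blocks was 0.16, against 0.00 over all tested genes. None of the 14 passed in edgeR, with or without blocks, or in limma-voom. With blocks, 6 of the 14 had an unadjusted edgeR p below 0.05, as did 407 of all 9519 genes. Without blocks 0 of the 14 did in edgeR, as did 124 of all genes. In limma-voom 1 did, as did 335 of all genes. The 14 genes were measured in the same libraries, so their signs are not separate results.

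Bnc1, a zinc finger gene of the list also named after its values were seen, had 32.8 ± 7.88 CPM in KO and 23.9 ± 3.01 CPM in WT libraries (SD, n = 6 each). Its log2 fold change was 0.46 (edgeR adjusted p = 0.0856), and the adjusted p was 0.0155 without the pair KO 2, 0.0267 without KO left 2 alone and 0.0245 by DESeq2. Only 2 of the 24 fits that left out a library or a pair passed. Over these 24 fits the value lay between 0.24 and 0.61, with an edgeR adjusted p of up to 0.512. Rspo1 and Bnc1 were far from Gpm6a in pattern over the 12 libraries, with Pearson's r of -0.883 and -0.806 to it, given as a description.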
